A study of Mus musculus with 38 samples.

Results

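Of the 42090 CREB sites listed for mouse hepatocytes given glucagon plus corticosterone, 12738 (30.3%) shared no base with a GR site of the same hormones, with a CREB site of glucagon alone or with a CREB site of untreated cells. These 12738 regions, called CREB sites without GR below, were chosen from the deposited lists themselves, so their absence from those 3 lists is the rule and not a finding. They made up 95.4% of the 13352 sites that the list with corticosterone held and the glucagon and untreated lists lacked. The other 614 lay at a GR site and are called CREB sites at GR. The rest of the list consisted of 6709 sites also found in the untreated list but not in the glucagon list (15.9%) and 22029 sites also found in the glucagon list (52.3%). Taken over the list of 42090 sites, 88.6% lacked a GR site, 47.7% lacked a glucagon site and 39.3% lacked an untreated site.

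CREB is a transcription factor that binds cAMP response elements. Glucagon, the pancreatic hormone of fasting, raises cAMP in hepatocytes, and protein kinase A then phosphorylates CREB, which lets it recruit coactivators to genes of glucose production. Corticosterone, the main glucocorticoid of rodents, enters the cell and binds GR, the glucocorticoid receptor, which moves to the nucleus and binds DNA directly or through other factors. GR can open chromatin at enhancers and so make room for other factors. Acetylation of histone H3 at lysine 27 (H3K27ac) is carried by active promoters and enhancers, and is used here as an independent view of the same regions in whole liver.

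The hepatocytes, the main cell type of liver, were isolated from C57BL/6 mice by collagenase perfusion and kept for 1 h with 10 nM glucagon plus 1.7 uM corticosterone (CREB and GR, 2 samples each), with 10 nM glucagon (CREB, 2 samples) or untreated (CREB, 1 sample). Liver came from mice of the same strain that were fed ad lib, fasted for 10 h or fasted for 24 h (H3K27ac, 3 samples each), and from mice fasted for 24 h or fed (CREB and phospho-CREB, 3 samples each). The same CREB antibody served for hepatocytes and liver, and GR was precipitated with a mix of antibodies. No age is given, and the liver CREB and phospho-CREB lists rest on 2 of their 3 libraries, per their names. Each group has 1 list with 1 value per region, so no spread between replicates exists and no test between conditions could be made. Every difference below is between lists, with a 95% interval that covers counting error only, and neighbouring regions are not independent. The read depth is unknown. The hepatocyte label could not be checked against marker genes, because the lists hold no expression values. The study asked how factor binding and histone acetylation in liver differ with fasting.

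The CREB sites without GR lay low in their list. The authors' peak caller gives each site a maximum tag density, whose normalisation is not stated, and the sites were ranked by it within the list. The median density was 6.14 at CREB sites without GR, with 10th and 90th percentiles of 3.39 and 11.9 and a range of 0.424 to 97.0. It was 11.1 at CREB sites at GR, 9.03 at sites of the untreated list and 19.9 at sites of the glucagon list. The whole list had a median of 11.4. The median rank was 33368.5 of 42090. None of the 1000 densest sites was a CREB site without GR, and 17 of the densest 5000 and 132 of the densest 10000 were. From the densest to the least dense quartile of the list, the quartiles held 147, 1291, 3892 and 7408 of them, or 1.40%, 12.3%, 37.0% and 70.4% of the sites there. In the least dense decile of the list the share was 76.8%.

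**Figure D1:**
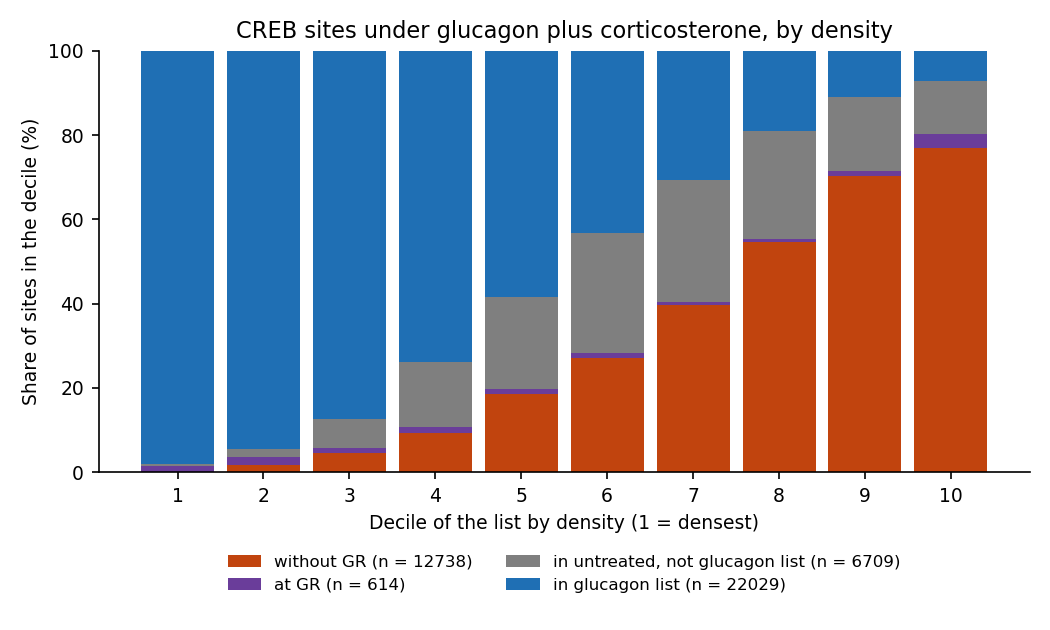
Stacked bars give the share (%) of each class of CREB site in deciles of the glucagon plus corticosterone list, from the densest decile on the left to the least dense on the right. CREB sites without GR make up 0.143% of the densest decile and 76.8% of the least dense, while sites shared with the glucagon list fill most of the densest deciles.

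They were also narrow and had low z-scores. The median width was 391 bp, against 646 bp at CREB sites at GR, 564 bp at sites of the untreated list, 883 bp at sites of the glucagon list and 651 bp in the whole list. The narrowest width, 251 bp, was given to 1504 of them (11.8%), against 4.27% of the whole list. At the other end, 54 (0.424%) were wider than 1000 bp. The 90th percentile of width was 626 bp at CREB sites without GR and 1270 bp in the whole list. The authors' z-score had a median of 10.7, against 21.0 at CREB sites at GR and 18.8 in the whole list, where the lowest was 8.53. A z-score under 10 was given to 4889 (38.4%), against 14.9% of the whole list. A density over 20 was reached by 211 (1.66%), against 27.7% of the whole list.

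The boundary of the rule separated like values. Of the CREB sites without GR, 24 had at most 10 bases between them and a site of one of the 3 lists. The 5 nearest had 0 bases between and densities of 4.66 to 10.7. Of the sites left out, 35 shared at most 10 bases with those lists, and the 5 of smallest overlap shared 1 or 2 bases and had densities of 2.97 to 6.57. Within 500 bp of a site of any of the 3 lists lay 1567 (12.3%). Corticosterone dependence was not measured at single sites, since the lists give no density where no site was called. With the list reduced by density to the 28229 sites of the glucagon list, 3699 CREB sites without GR remained.

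The densest of these sites show the range of settings they came from. The first, at chr10:95302178-95303177 (mm9, as all positions here), had a density of 97.0 and rank 1580. It lay 2100 bp from a GR site and 1988 bp from a glucagon CREB site. It was inside an H3K27ac region in all 3 liver states, 4174 bp wide in fed liver, 4595 bp at 10 h and 4770 bp at 24 h, and it met a liver CREB site of fasted mice only. The second, at chr5:99768642-99770175, had a density of 58.0, was 1533 bp wide and was also acetylated in all 3 states. The next of them, at chr2:132506609-132507403 (density 54.5) and chr4:108027666-108028535 (51.7), were in the 10 h H3K27ac list only. The site at chr7:94516022-94517031 had a density of 49.5, lay 144284 bp from the nearest GR site and was in none of the 7 liver lists. The acetylation pattern varied even among the densest: of the 10, 3 were in the fed, 5 in the 10 h and 4 in the 24 h H3K27ac list, and 4 were in none. The remaining 5 of the 10 had densities of 43.9 to 47.4.

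The widest site without GR, at chr12:52966006-52967617, spanned 1611 bp at a density of 13.8. It lay 552033 bp from the nearest GR site and was acetylated in all 3 states. The 5 widest ran from 1415 to 1611 bp, and 4 of them were acetylated in all 3 states.

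In liver, few of the CREB sites without GR were acetylated in any state. An H3K27ac region covered at least 1 base of 2312 of them in fed liver (18.2%, 95% Wilson interval 17.5 to 18.8), of 3305 after 10 h (25.9%, 25.2 to 26.7) and of 2328 after 24 h of fasting (18.3%, 17.6 to 19.0). Over the whole CREB list the shares were 43.4% fed, 52.9% at 10 h and 44.1% at 24 h. In none of the 3 lists were 9234 CREB sites without GR (72.5%), against 45.0% of the whole list, and in all 3 were 1946 (15.3%), against 39.7%. The CREB sites without GR thus lay below the whole list in every liver state. In bulk liver, fewer cells with the mark and less of it per cell cannot be told apart.

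**Figure D2:**
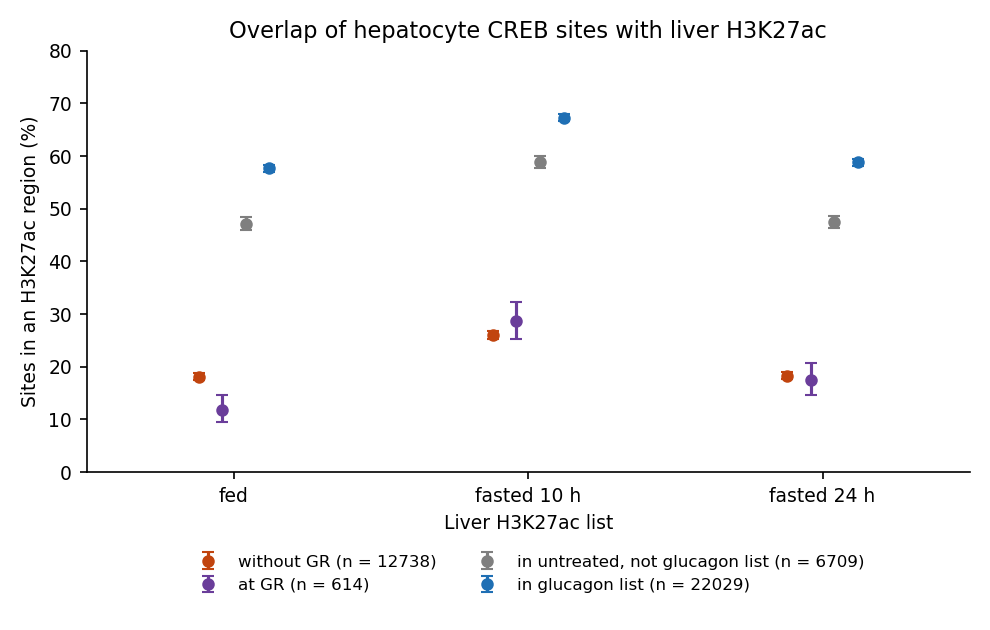
Points give the share (%) of each class of hepatocyte CREB site that shares a base with an H3K27ac region of fed, 10 h fasted and 24 h fasted liver, with 95% Wilson intervals as bars. CREB sites without GR stand at 18.2%, 25.9% and 18.3%, near CREB sites at GR and far below the other classes.

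The shares at 24 h and in fed liver lay within counting error of each other. Of the CREB sites without GR, 322 (2.53%) were in the 24 h list and not the fed one, against 3.74% of the whole CREB list, and 306 (2.40%) were in the fed list and not the 24 h one, against 2.98%. The difference, 24 h minus fed, was 0.126 percentage points (-0.260 to 0.511). It was -0.306 points with the lists reduced to 29917 regions each by density, so its direction turned, and 2.36 points (0.876 to 3.85) in the upper 50% of the CREB list. For comparison, the whole CREB list had 0.760 points (0.513 to 1.01) and the glucagon-list sites 1.13 points (0.779 to 1.49). In the 10 h list only were 870 of the CREB sites without GR (6.83%), against 7.87% of the whole CREB list. The share at 10 h exceeded the fed share by 7.80 points, with 1119 sites in the 10 h list and not the fed one and 126 the reverse. The 10 h list is the longest of the 3, with 29917 regions in fed liver, 47777 at 10 h and 32103 at 24 h, and at equal length the difference was 3.28 points.

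**Figure D3:**
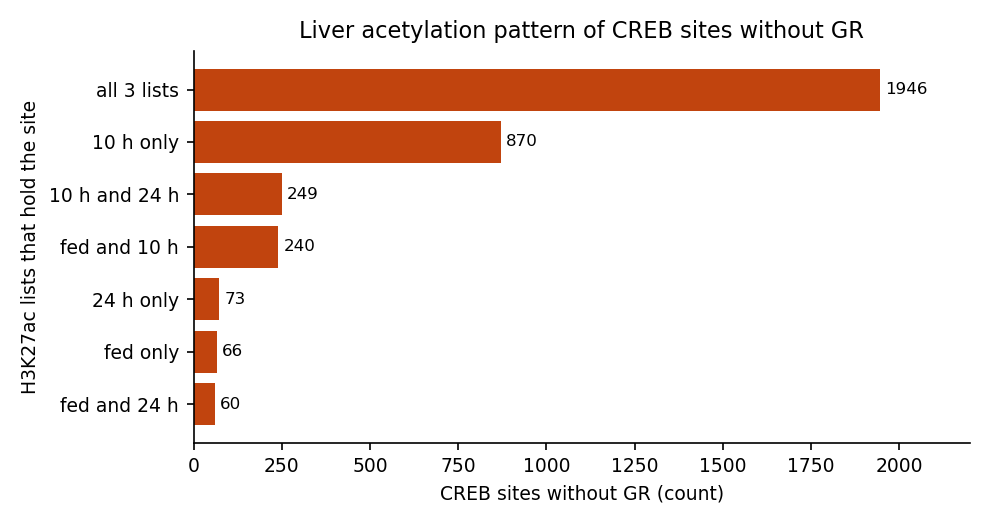
Bars give the number of CREB sites without GR in each combination of the 3 liver H3K27ac lists, leaving out the 9234 sites in none. The bar for all 3 lists, with 1946 sites, is the longest, and 66 sites were in the fed list only, 870 in the 10 h list only and 73 in the 24 h list only.

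Single sites illustrate the opposite patterns. Among sites acetylated at 24 h and not in fed liver, the densest was chr10:13707806-13708746 (density 45.4, 3884 bp from a GR site), which met a 367 bp H3K27ac region of the 24 h list and none at 10 h. The next, chr7:119610093-119610967 (43.4), met H3K27ac regions at both 10 h and 24 h and lay 2375 bp from a GR site. Another, chr1:132663182-132663907 (23.5), lay 1723 bp from a GR site of density 182, which ranked 5 in the GR list. Among sites acetylated in fed and not in 24 h fasted liver, the densest was chr15:58823777-58824549 (38.0), in a 1660 bp fed region and 2853 bp from a GR site. All 5 of the densest sites with that pattern were in the 10 h list too, and 3 of them lay within 10 kb of a GR site, as did 3 of the 5 with the 24 h pattern.

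In fed liver, more of the CREB sites without GR were acetylated than of those at GR. The share was 18.2% without GR and 11.9% at GR, a difference of 6.26 points (95% Newcombe interval 3.38 to 8.68). At 24 h the shares were 18.3% and 17.4%, a difference of 0.849 points (-2.42 to 3.73), which was -1.30 points when a gap of 500 bp counted as shared. At CREB sites at GR, 37 were in the 24 h list and not the fed one and 3 the reverse, which gave 24 h minus fed as 5.54 points (3.57 to 7.51). That interval does not meet the one of the sites without GR. The sites at GR were also denser and wider, so the comparison was repeated within quartiles of the density rank. In fed liver the sites without GR exceeded those at GR by 15.9, 14.8, 16.7 and 6.36 points from the densest to the least dense quartile. At 24 h they exceeded them by 8.78 (-1.71 to 19.1), 5.99 (-2.30 to 13.2), 12.97 (4.50 to 19.1) and 5.55 points (2.05 to 7.50). The shares at 24 h were thus near-equal in the pooled classes and not within quartiles 3 and 4. At 10 h the pooled shares were 25.9% without GR and 28.7% at GR, a difference of -2.72 points (-6.50 to 0.802). Within quartiles the 10 h difference was 15.1 (4.09 to 25.6), 4.64 (-4.01 to 12.8), 13.4 (4.07 to 21.1) and -6.20 points (-12.2 to -1.17). In the least dense quartile at 10 h, fewer of the sites without GR were thus acetylated. The 24 h minus fed difference of the sites without GR was 1.36, 2.48, 0.180 and -0.337 points over the same quartiles, against 8.44, 11.3, 3.88 and 0.465 points at GR. Within the second quartile the interval of the sites without GR lay above 0 (0.907 to 4.05, with 70 sites in the 24 h list only of the pair and 38 in the fed list only). Positive differences at dense sites were not particular to these classes. Glucagon-list sites had 2.35 points (1.82 to 2.88) in the densest quartile and 0.627, -0.226 and -2.03 points in the others. Untreated-list sites had 2.86 (-1.50 to 7.22), 1.03, -0.335 and 0.340 points.

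**Figure D4:**
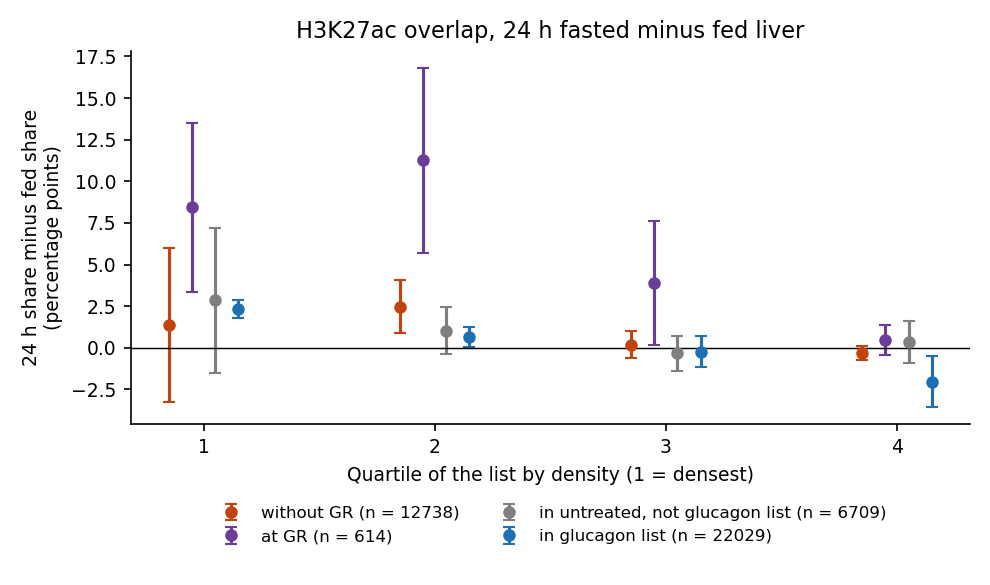
Points give the share in the 24 h H3K27ac list minus the share in the fed list, in percentage points with 95% intervals, by class and by quartile of the CREB list from densest to least dense. CREB sites at GR stand above 0 in the first 3 quartiles, and the interval of CREB sites without GR lies above 0 in the second quartile (2.48 points) and reaches 0 in the other 3. The interval of glucagon-list sites lies above 0 in the first and second quartiles and below 0 in the least dense.

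At like density and width, fewer of the CREB sites without GR were acetylated than of the sites shared with the untreated or glucagon list. Within the second density quartile and widths of 400 to 800 bp, 33.7% of the CREB sites without GR (30.9 to 36.6) were in the 24 h list, against 29.9% of those at GR (21.3 to 40.2), 56.7% of the sites of the untreated list (54.0 to 59.4) and 49.7% of those of the glucagon list (48.0 to 51.3). In quartile 3 the shares were 28.0%, 18.2%, 46.7% and 41.8% in the same order. In every class, fewer sites were acetylated in the least dense quartile than in the densest. At CREB sites without GR the shares in the densest quartile were 34.7% in fed liver, 45.6% at 10 h and 36.1% at 24 h. In the least dense they were 9.61%, 15.2% and 9.27%. Quartiles 2 and 3 had 31.7% and 29.3% in fed liver, so most of the fall lay in the least dense. From the densest to the least dense quartile, the fed share went from 57.1% to 29.0% at untreated-list sites. It went from 65.2% to 23.7% at glucagon-list sites and from 18.8% to 3.26% at CREB sites at GR.

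The H3K27ac regions that held CREB sites without GR were broad, as were those that held the other classes. In fed liver there were 2355 such regions (7.87% of the fed list) of 1347 bp at the median, where the fed list as a whole had 821 bp. At 10 h there were 3301, at a median of 1389 bp (698 bp in the whole list), and at 24 h 2349, at a median of 1335 bp (797 bp in the whole list). Regions holding sites of the untreated list had medians of 1266 bp in fed liver, 1401 bp at 10 h and 1273 bp at 24 h, and those holding glucagon-list sites 1099, 1292 and 1134 bp. A broader region has more room for any site. A glucagon CREB site was in the same acetylated region in 29.1% of the fed, 25.4% of the 10 h and 29.5% of the 24 h regions with a CREB site without GR, below the 46.2%, 33.2% and 43.2% of all regions of those lists. Regions holding sites of the untreated list, which also met no glucagon site, had 24.5%, 23.0% and 24.2%. In 1395 of the fed regions (59.2%), 2121 of the 10 h regions (64.3%) and 1370 of the 24 h regions (58.3%), none of the GR, glucagon CREB and untreated CREB lists had a site. Since those lists made the rule, these shares are a description and not a finding about the sites.

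Liver CREB was rarely listed at these sites. Liver CREB sites of 24 h fasted mice met 86 of the CREB sites without GR (0.675%, 0.547 to 0.833), and those of fed mice met 161 (1.26%, 1.08 to 1.47). Over the whole CREB list the shares were 11.8% fasted and 14.5% fed. Both states held 33 (0.259%, against 9.86% of the whole CREB list). The fasted list only held 53 (0.416%, against 1.91%) and the fed list only 128 (1.00%, against 4.66%). The difference, fasted minus fed, was -0.589 points (-0.796 to -0.382), and the fed list was the longer, with 11339 fasted and 13142 fed sites. It was -0.204 points (-0.382 to -0.0260) with both lists at equal length by z-score, and -0.278 points (-1.10 to 0.539) in the upper 50% of the hepatocyte list, where the interval includes 0. For comparison, 9.28% of the CREB sites at GR met a fasted and 7.65% a fed liver CREB site, and of the glucagon list's sites 21.2% and 25.7% did. The gap to the CREB sites at GR lay in the less dense quartiles. In the least dense, 0.621% of the sites without GR and 17.2% of those at GR met a fasted liver CREB site, and 1.13% and 15.8% a fed one. In the densest, 3.40% and 4.55% met a fasted site (difference -1.14 points, -6.08 to 3.76), and 2.04% and 0.649% a fed one (1.39 points, -1.84 to 5.22). The intervals of the second quartile also include 0.

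Phospho-CREB, the form phosphorylated downstream of glucagon, was rarer still. Its lists were also shorter, with 6812 fasted and 7669 fed sites, against 11339 and 13142 for CREB. The phospho-CREB list of 24 h fasted liver met 51 CREB sites without GR (0.400%), and the fed list met 45 (0.353%). The whole CREB list had 2.15% fasted and 4.02% fed. The difference, fasted minus fed, was 0.0471 points (-0.0680 to 0.162), an interval that includes 0. With both lists at equal length by z-score it was 0.118 points (0.00789 to 0.228), just above 0. Both lists held 20 (0.157%, against 1.70% of the whole CREB list). The fasted list only held 31 (0.243%, against 0.449%) and the fed list only 25 (0.196%, against 2.32%). At CREB sites at GR the shares were 8.79% fasted and 7.98% fed. In the densest quartile, the fasted list met 1 site without GR and 1 at GR. In quartiles 2, 3 and 4 it met 0.310%, 0.206% and 0.513% of the sites without GR, against 7.04%, 6.80% and 16.7% of those at GR. Of the CREB sites without GR, 36 met both a liver CREB and a liver phospho-CREB site. The same share of the whole CREB list was not computed, so the 36 are a count only.

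The liver CREB and phospho-CREB sites found at CREB sites without GR ranked just below the middle of their own lists. Their median rank was 6536 of 11339 in the fasted and 7534.5 of 13142 in the fed CREB list, and 3651 of 6812 in the fasted and 4226 of 7669 in the fed phospho-CREB list. None had a density over 1000, a level passed by 14 fasted and 33 fed liver CREB sites in all. Few had a high rank: of the 1000 densest sites of each liver list, 1 fasted CREB, 3 fed CREB, 2 fasted phospho-CREB and 1 fed phospho-CREB site met a CREB site without GR. The best rank was 338 in the fasted CREB, 317 in the fed CREB, 50 in the fasted phospho-CREB and 57 in the fed phospho-CREB list. The site at chr5:37051930-37052911 (hepatocyte density 40.2, 981 bp) met a liver site in all 4 lists, at rank 338 in the fasted and 407 in the fed CREB list and at rank 50 in the fasted and 57 in the fed phospho-CREB list. It was in the 10 h H3K27ac list only, and the nearest GR site was 136957 bp away. The next densest site with liver CREB in both states, chr12:31967734-31968634 (17.6), ranked 6301 in the fasted and 7153 in the fed list and was in no H3K27ac list.

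Acetylation was more frequent at the sites that liver CREB met than over the class, where 27.5% were in any H3K27ac region. It was not more frequent there than over the whole CREB list, where 55.0% were. Of the 214 CREB sites without GR at a liver CREB site of either state, 118 (55.1%) were in an H3K27ac region and 25.7% lay within 10 kb of a GR site. Of the 76 at a liver phospho-CREB site, 25 (32.9%) were in an H3K27ac region and 40.8% lay within 10 kb of a GR site, and their median hepatocyte density was 3.93. At CREB sites met in fasted liver only, the densest after chr10:95302178-95303177 was chr6:149082562-149083401 (34.4, acetylated in all 3 states, 3162 bp from a GR site). At sites met in fed liver only, the densest was chr2:103290290-103291010 (28.0), in no H3K27ac list. Counting all 7 liver lists, 3631 CREB sites without GR (28.5%) met at least 1, against 57.5% of the whole CREB list.

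Some of the CREB sites without GR lay close to a GR site, though they shared no base with one. The median distance to the nearest GR site was 92815 bp, and 1868 (14.7%) lay within 10 kb. As a description, since the GR list was part of the rule, nearness followed density: 73 of the 147 sites in the densest quartile (49.7%, 41.7 to 57.6), 29.6% in the second, 16.1% in quartile 3 and 10.6% in the least dense lay within 10 kb. Glucagon CREB sites that were also not at GR had 16.1%, 14.8%, 11.4% and 12.3% over the same quartiles, and untreated-list sites not at GR had 30.0%, 20.02%, 12.2% and 12.9%. Of the 10 densest CREB sites without GR, 8 lay within 10 kb of a GR site, and for each of those 8 the nearest GR site met a glucagon CREB site. With quartiles by z-score, the share in the first quartile was 37.1%, against 14.5% of the glucagon sites not at GR.

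**Figure D5:**
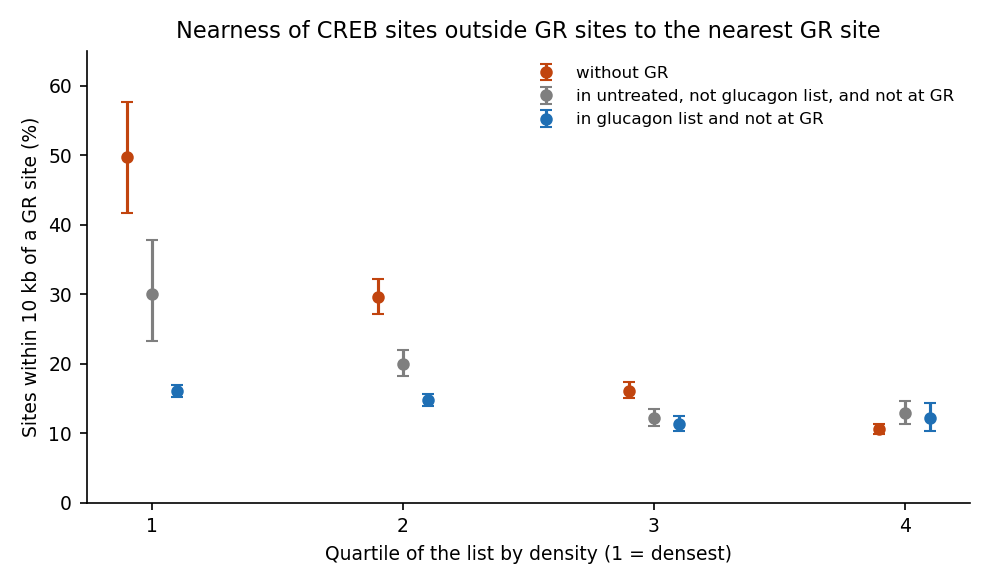
Points give the share (%) of CREB sites within 10 kb of a GR site, with 95% Wilson intervals, by quartile of the list from densest to least dense, for 3 classes that share no base with a GR site. CREB sites without GR run from 49.7% in the densest to 10.6% in the least dense quartile, and glucagon-list sites from 16.1% to 12.3%.

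The GR sites near CREB sites without GR were often themselves at CREB sites, more so near the denser ones. This is a description, since the rule used the GR list and the hepatocyte CREB lists. Of the 1868 sites within 10 kb, 69.6% had as their nearest GR site one that met a CREB site of both hormones, and 61.3% one that met a glucagon CREB site. Of the whole GR list, 42.7% and 37.1% met such sites. Over the quartiles of the CREB sites without GR, from the densest, the shares were 97.3%, 89.5%, 82.0% and 47.5% for both hormones, and 79.5%, 75.1%, 74.2% and 42.7% for glucagon. The least dense quartile, with 785 of the 1868 sites, was thus close to the whole GR list. For 39.3% of the 1868 the nearest GR site was in a 24 h H3K27ac region, against 21.8% of the GR list. The nearest GR sites of the 1868 were also denser, with a median GR density of 6.28 against 3.77 in the GR list. From the densest quartile, their median ranks in the GR list were 1359, 2380.5, 3198 and 6205, against 5946.5 for the whole GR list. The CREB shares thus fell along with GR density. Whether these shares differ from the GR list at like GR density was not tested. The GR sites near the other classes of CREB site were not examined in this way.

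Pooled over densities, more of the sites near GR were acetylated. Of the CREB sites without GR within 10 kb of a GR site, 24.5% were acetylated in fed liver, 36.6% at 10 h and 26.1% at 24 h. Between 10 and 100 kb the shares were 19.2%, 27.03% and 18.9%, and beyond 100 kb 15.4%, 21.8% and 15.4%. The other classes not at GR ran the same way. Untreated-list sites had 54.8%, 68.1% and 56.2% within 10 kb, against 45.2%, 55.3% and 44.7% beyond 100 kb. Glucagon-list sites had 61.5%, 71.5% and 61.9%, against 58.8%, 66.9% and 59.4%. Of the CREB sites without GR within 10 kb, 82 were in the 24 h list and not the fed one and 51 the reverse. That is a difference of 1.66 points (0.452 to 2.87), and of 1.34 points (0.130 to 2.55) with lists of equal length. Between 10 and 100 kb it was -0.253 points, and -0.632 (-1.28 to 0.0154) at equal length. Beyond 100 kb it was -0.0490 points, and -0.555 (-1.07 to -0.0453) at equal length, where the interval lies below 0. Most of the difference within 10 kb came from the second density quartile. There, 27 sites were in the 24 h list and not the fed one and 6 the reverse, or 5.50 points (2.60 to 8.39). Glucagon CREB sites within 10 kb of GR but not at it had 0.418 points (-0.606 to 1.44). Untreated-list sites within 10 kb of GR but not at it had 1.36 points (-0.552 to 3.28), near the value of the sites without GR. With lists of equal length the values were -0.0380 points for the glucagon and 0.314 points for the untreated list's sites. The sites within 10 kb were denser than the class as a whole, with a median density of 7.63. At like density the pooled differences by distance were not found in every quartile. In the second quartile 31.9% of the sites within 10 kb and 33.2% of those beyond 100 kb were acetylated in fed liver, 46.9% and 47.0% at 10 h, and 37.4% and 35.2% at 24 h. In quartile 3 the shares within 10 kb and beyond 100 kb were 33.6% and 27.7% in fed liver, 46.7% and 37.0% at 10 h, and 34.6% and 27.8% at 24 h.

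The CREB sites without GR were spread over all 21 chromosomes of the list. On the autosomes they made up 25.3% (chromosome 11) to 35.5% (chromosome 1) of the CREB sites, and on chromosome X 38.0% (398 of 1046). Another CREB site without GR lay within 10 kb of 21.6% of them, and a CREB site of another class within 10 kb of 41.1%. The nearest glucagon CREB site was at a median of 18882.5 bp and the nearest untreated CREB site at 10583 bp.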

How the data were processed

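Immunoprecipitated chromatin of mouse liver and hepatocytes was sequenced, and 11 of 13 peak lists were used, 1 for each of 11 groups; 2 lists, with 8 columns of values, match no sample and were not used here. Samples were grouped by the labels: 38 samples in 15 groups, of which 4 groups with 10 samples were not analysed here. Per the submitters' processing notes, CASAVA 1.8 and build mm9 were used; neither aligner nor caller settings are given in the sources used here. Per the list names, the 3 H3K27ac lists pool 3 libraries, the other lists name a pair of libraries and carry a false discovery rate tag, the liver CREB and phospho-CREB lists name 2 of 3 libraries, and the untreated list names 1 library against itself.

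The maximum tag density, a signal, and the z-score, a score, were deposited by the authors for each region, and their scaling is not stated. Both served for ranking, filtering and description inside 1 list, never between lists. Depth is unknown.

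Regions sharing at least 1 base were called overlapping, with both ends counted. Shares have Wilson intervals, differences between states paired Wald intervals and differences between classes Newcombe intervals, all at 95%. Overlap code was tested on simulated lists. The sites, the lists compared and the 10 kb limit were chosen with earlier results of these data known. Named regions were the 10 densest sites, the 5 widest and the 5 densest of each liver pattern, with the 441 sites on chromosome 18 counted and not named. Genes were not assigned and no sequence is shown, since the annotation used here is of GRCm38.p6 and not mm9. Python 3.11.15, numpy 2.4.6 and pandas 2.3.3 were used.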

Additional observations from a re-analysis of the deposited data

How the results depend on the processing

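No paired analysis was possible because each list gives 1 value per region and none per library, and for the same reason no library could be left out. Of 129 values recomputed under alternatives, 82 were kept and 47 moved. A sign changed in 4, each in a difference whose interval included 0, and in 0 of the differences whose interval did not. A kept value lay inside the reported interval. The number of sites has no interval and was judged by its ratio to the reported number. Some of the 82 could not move. No liver site of density over 1000 met a CREB site without GR, so leaving those out changed nothing. At equal length the shortest list of each set stayed whole, so the shares in it stayed the same. The number of CREB sites without GR was 19162 with the untreated list left out of the rule, 1438 in the upper 50% of the CREB list by density and 3699 with that list reduced to the length of the glucagon list. The share in the 24 h H3K27ac list was 15.3% when 50% of the shorter region had to be shared and 17.3% when a gap of 500 bp counted as shared. It was 28.2% without the untreated list, 34.4% in the upper 50% and 33.2% at the glucagon length. The 24 h minus fed difference was 2.36 points in the upper 50% and 1.22 at the glucagon length, both with intervals above 0, -0.0906 with 50% shared, -0.306 with H3K27ac lists of equal length by density and -0.267 by z-score. The 10 h minus fed difference was 8.93 points without the untreated list, 12.2 in the upper 50%, 11.4 at the glucagon length, 3.28 with equal lists by density and 3.73 by z-score. The liver CREB difference, fasted minus fed, was -0.347 points with 50% shared, -0.898 without the untreated list, -0.278 in the upper 50% (interval including 0) and -0.204 with equal lists by z-score. The phospho-CREB difference was 0.118 points with equal lists by z-score (interval above 0). Sites without GR minus sites at GR at 24 h gave -1.30 points with a gap of 500 bp, 4.41 without the untreated list and 6.65 in the upper 50%, the last 2 with intervals above 0. In the upper 50% the fed difference was 14.1 and the 24 h minus fed difference at GR 9.80. The share of the densest quartile within 10 kb of GR was 37.1% by z-score quartiles and 39.7% without the untreated list. Where the construction does not show it, the cause was not tested. The reduced CREB list, the end base left out and the settings of the distance to GR were chosen after seeing the data.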
